A study of Mus musculus with 12 samples.

Results

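Gene expression of a TKO and a DKO leukaemia line was compared after 24 h in low-glucose medium. Both lines model acute lymphoblastic leukaemia of mouse B cells (B-ALL). The DKO cells lack Bax and Bak (Bax-/-,Bak-/-), and the TKO cells lack Bax, Bak and Mcl-1 (Bax-/-,Bak-/-,Mcl-1-/-), so both lines carry the deletions of the 2 pore-forming effectors and only TKO carries that of Mcl-1. The comparison takes 3 TKO and 3 DKO libraries, 6 of the 12 libraries of the study. The other 6 hold the same lines, 3 libraries each, in regular medium for 24 h. They show the difference between the lines when glucose was not limited, and they were fitted together with the low-glucose libraries, so that they also entered the filter on low counts and the estimate of the spread behind each call. The glucose concentration of either medium is not given in the sources used here. No second line of either genotype is named, so the deletion of Mcl-1 and any other difference between the lines cannot be told apart. Whether the 3 libraries of a group are separate cultures is not stated, so p-values reflect only how far these samples scatter, and that scatter may be technical.

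MCL-1 is an anti-apoptotic protein of the BCL-2 family that holds BAX, BAK and the BH3-only proteins in check at the mitochondrial outer membrane. A form of it also resides in the mitochondrial matrix, where roles in cristae structure and lipid oxidation have been described. Cells without BAX and BAK do not depend on MCL-1 to hold off mitochondrial apoptosis, which makes it possible to delete it and keep the cells. Cells short of glucose commonly slow their cycle, raise the transcription factor ATF4 and genes of amino acid supply, and turn to other fuels such as fatty acids and glutamine.

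Each gene was counted in reads, and levels are given as CPM (counts scaled to the size of the library), as mean ± SD of 3 libraries (n = 3) or as the 3 values. Of 24982 genes in the table, 11988 had enough counts to test. Calls were made with edgeR's quasi-likelihood test at a p, adjusted by Benjamini and Hochberg, under 0.05. By this rule 8941 genes (74.6% of those tested) differed between the lines in low glucose, 4462 higher in TKO (37.2%) and 4479 lower (37.4%). With the 6 low-glucose libraries alone 4266 were called higher and 4270 lower. Of the 4462 genes higher in the fit of all 12 libraries, 1188 were at least 2-fold higher (9.91% of those tested). Of the 4479 lower, 1259 were at least 2-fold lower (10.5%). The 3 TKO libraries did not overlap the 3 DKO libraries in 9020 genes (75.2%). With most genes called, a count of members called says little beside these shares, and the size of a difference is given throughout. In the authors' deposited table of the same comparison 8563 genes had an adjusted p under 0.05, and 8264 of them were called here, all in the same direction. The median log2 fold change over all tested genes was -0.0023, and the middle of the distribution ran from -0.40 to 0.39 (quartiles).

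The libraries separated by line. The first principal component of the 6 libraries held 97.0% of the variance and divided TKO from DKO, and the second, with 1.86%, set TKO replicate 2 apart from TKO replicate 3. Total counts ran from 35758895 to 46925274 in DKO and from 22190736 to 42140396 in TKO. The labelled lineage was checked on its defining genes, which were read in every library: Cd79a, Ebf1 and Pax5 stood at 874 ± 17.7, 614 ± 10.1 and 645 ± 24.2 CPM in DKO and 882 ± 81.6, 631 ± 63.6 and 1186 ± 133 CPM in TKO. Few T and NK cell, myeloid, erythroid and stromal markers reached 1 CPM. No count was found for 7 of 18 T and NK cell markers in any of the 6 libraries (Cd3g, Cd4 and Cd8a among them), nor for 5 of 23 myeloid, 10 of 19 erythroid, megakaryocyte and mast cell and 8 of 16 stromal and endothelial markers. The summed level of the T and NK list ran from 27.9 to 28.9 CPM in DKO and from 13.5 to 13.9 CPM in TKO, and that of the myeloid list from 12.8 to 13.0 and from 4.10 to 6.62 CPM. The members at 1 CPM or more were Lat, Zap70, Tcf7 and Klrb1c in the first list and Lyz2, Cd68 and Fcgr3 in the second, and Tfrc and Pecam1, which B-lineage cells can express, in the other 2 lists. The list with Tfrc summed to 480 to 494 CPM in DKO and 525 to 724 CPM in TKO. That with Pecam1 summed to 162 to 168 and 70.9 to 74.8 CPM. Dendritic cell markers summed to 621 to 634 CPM in DKO and 446 to 461 CPM in TKO, with Bst2, Tcf4 and Irf8 at 1 CPM or more. Y-linked genes divided the lines in full. The demethylase gene Kdm5d stood at 76.9, 74.4 and 74.5 CPM in the DKO libraries and 0.0485, 0.0895 and 0.0932 CPM in the TKO libraries, Ddx3y, Eif2s3y and Uty were called lower as well, and the 6 Y-linked genes in the table summed to between 398 and 411 CPM in DKO and between 0.291 and 0.513 CPM in TKO. The lines thus differ in more than the labelled deletion.

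**Figure D1:**
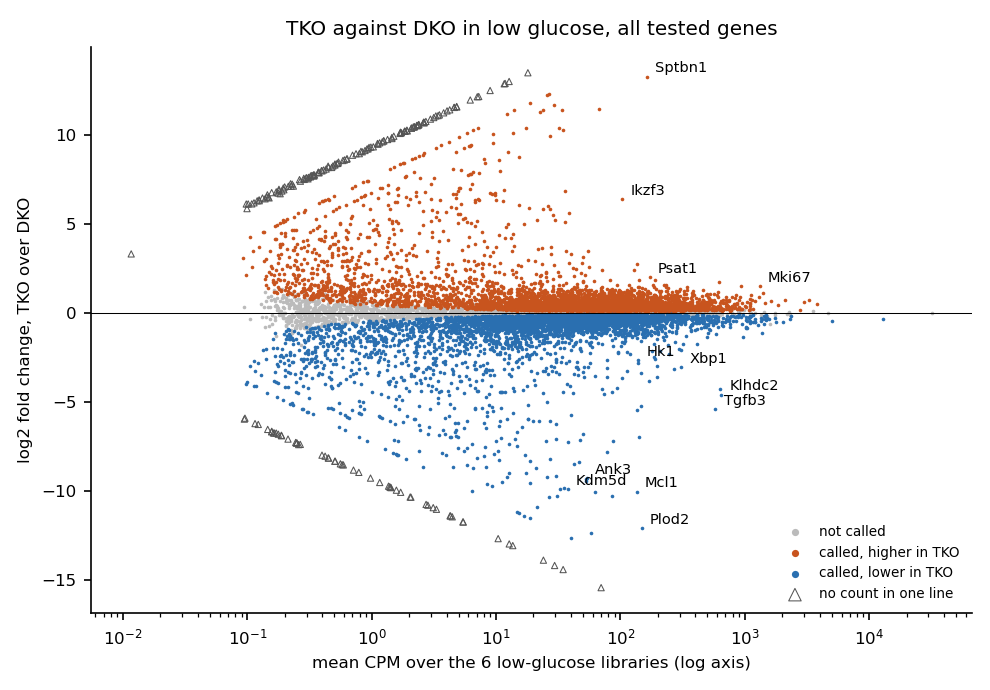
Log2 fold change of TKO over DKO in low glucose (y axis) against the mean CPM of the 6 low-glucose libraries (x axis, log scale), 1 point for each of 11988 tested genes. Orange points were called higher in TKO and blue points lower, grey points were not called, and open triangles had no count in 1 line, so that their height depends on the prior count of the fit and is no measured fold. Called triangles included, 4462 genes were called above 0 and 4479 below.

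Sequences upstream of the genes are given for some of the gene groups described below. Dividing cells switch on DNA replication genes through E2F factors, and mitotic genes through the CHR element, bound by the DREAM and MuvB complexes. RefSeq promoter windows (GRCm38.p6, 250 bases before to 50 after the start) were available for 9371 of the tested genes. On both strands, the E2F letters TTCCCGC or TTGGCGC were found in the windows of 24 of 44 DNA replication genes (54.5%) and in 14.4% of tested genes, and in 7.79% of 27025 genes with a window. The CHR letters TTTGAA were found in 33 of 46 mitosis genes (71.7%), in 14.4% of tested genes and in 20.2% of all genes with a window. These matches are letters in a window and are not shown here to be bound. Among tested genes whose window held the CHR letters 43.0% were higher in TKO and 35.0% lower, and with the E2F letters 45.1% and 31.2%. Over all tested genes, with or without a window, the shares were 37.2% and 37.4%. Among genes with a window, the median log2 fold change was 0.06 with the CHR letters and -0.03 without. For the E2F letters it was 0.10 and -0.03. The mitosis and replication genes are themselves among those counted. The E2F letters also lay in 12 of 46 mitosis windows (26.1%) and the CHR letters in 10 of 44 replication windows (22.7%). Because replication and mitosis genes stood higher in TKO with 1 exception, stretches are printed upstream of 2 helicase genes with the E2F letters in capitals, and of the mitosis genes Cdc20, Cdk1 and Ube2c with the CHR letters (or their complement, read on the other strand) in capitals, 5′ to 3′ along the gene's strand.
Mcm5 (chr8:75109315-75109396, plus strand): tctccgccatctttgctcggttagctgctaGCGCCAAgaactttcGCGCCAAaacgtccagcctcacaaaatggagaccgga
Mcm6 (chr1:128359715-128359844, minus strand): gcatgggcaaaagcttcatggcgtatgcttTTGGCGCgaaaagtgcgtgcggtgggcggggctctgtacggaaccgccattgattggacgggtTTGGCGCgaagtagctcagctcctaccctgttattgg
Cdc20 (chr4:118437344-118437391, minus strand): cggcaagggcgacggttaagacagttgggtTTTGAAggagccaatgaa
Cdk1 (chr10:69352913-69353013, minus strand): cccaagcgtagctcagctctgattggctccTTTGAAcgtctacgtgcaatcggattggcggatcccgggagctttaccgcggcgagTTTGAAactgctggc
Ube2c (chr2:164769870-164769928, plus strand): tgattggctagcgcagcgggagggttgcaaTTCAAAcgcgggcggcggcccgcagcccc

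Other elements were looked for in groups that stood lower in TKO and in 2 further lists. The endoplasmic reticulum stress element (ERSE; CCAAT, 9 unspecified bases, then CCACG) is read by ATF6 with NF-Y, the interferon-stimulated response element (ISRE; GAAANNGAAA) by factors that include STAT2 and IRF9, the C/EBP-ATF response element (CARE; TGATGNAA) by ATF4, and the CLEAR E-box (TCACGTGA) by TFEB and its relatives. The ERSE lay in 9 of 26 windows of unfolded protein response genes (34.6%) and in 0.171% of tested genes (0.137% of all windows). The ISRE lay in 21 of 46 interferon response windows (45.7%; 3.98% of tested genes and 3.99% of all). The CARE lay in 6 of 21 windows of ATF4 and stress factor genes (28.6%; 2.77% and 4.51%), and the CLEAR E-box in 7 of 32 lysosomal windows (21.9%; 2.34% and 1.12%). Other lower groups held few of them: the CLEAR E-box lay in 1 of 27 autophagy windows (3.70%) and the CARE in 1 of 12 windows of amino acid transporters (8.33%). The antioxidant response element (TGACNNNGC) lay in 9 of 25 windows of oxidative stress genes (36.0%; 17% and 14.0%), and the sterol response element (TCACNCCAC) in 1 of 22 windows of cholesterol genes (4.55%; 1.38% and 1.44%). A few genes of each group are shown with the element, or its complement, in capitals. Neighbouring ISRE matches overlap in Isg15 and are capitalised as 1 run.
Hspa5, ERSE (chr2:34771995-34772073, plus strand): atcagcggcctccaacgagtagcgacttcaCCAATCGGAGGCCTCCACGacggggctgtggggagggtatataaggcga
Pdia6, ERSE (chr12:17266461-17266539, plus strand): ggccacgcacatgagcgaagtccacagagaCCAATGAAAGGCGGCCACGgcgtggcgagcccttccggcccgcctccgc
Derl3, ERSE (chr10:75893212-75893290, plus strand): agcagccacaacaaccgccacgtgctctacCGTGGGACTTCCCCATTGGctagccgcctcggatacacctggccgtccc
Isg15, ISRE (chr4:156200845-156200926, minus strand): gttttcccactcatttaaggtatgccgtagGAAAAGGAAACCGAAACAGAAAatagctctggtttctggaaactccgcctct
Ifit1, ISRE (chr19:34640755-34640843, plus strand): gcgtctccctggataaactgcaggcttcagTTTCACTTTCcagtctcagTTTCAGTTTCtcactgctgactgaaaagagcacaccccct
Chac1, CARE (chr2:119351019-119351086, plus strand): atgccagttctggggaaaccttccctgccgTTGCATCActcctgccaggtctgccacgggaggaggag
Atf3, CARE (chr1:191183406-191183473, minus strand): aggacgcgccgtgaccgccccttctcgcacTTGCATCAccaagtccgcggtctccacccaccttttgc
Ctsd, CLEAR E-box (chr7:142387889-142387956, minus strand): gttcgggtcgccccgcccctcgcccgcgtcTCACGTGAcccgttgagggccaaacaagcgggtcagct

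Mcl1 (mm10 chromosome 3, 95658788 to 95663176) was read in every DKO library and nearly absent from TKO. It stood at 266, 270.2 and 273 CPM in the DKO libraries and 0.170, 0.268 and 0.326 CPM in the TKO libraries. The difference was 1049.7-fold (log2 -10.04 ± 0.19, adjusted p = 5.28e-18), and the few TKO reads, 27 over the 3 libraries, kept every TKO library below every DKO library. Bax and Bak1, deleted in both lines per the labels, still gave reads. Bax stood at 21.1, 20.9 and 23.0 CPM in the DKO libraries and 6.97, 7.92 and 5.62 CPM in the TKO libraries, and Bak1 at 20.0, 19.8 and 20.2 CPM in the DKO libraries and 5.29, 4.07 and 5.24 CPM in the TKO libraries. Both were lower in TKO, 3.24- and 4.02-fold, and no library with intact Bax and Bak1 is in the series to set them against.

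The other anti-apoptotic genes did not stand higher in TKO as a group. Of the 4 tested, Mcl1, Bcl2l2 and Bcl2l1 (BCL-XL) were lower and Bcl2 was higher. Bcl2 stood at 22.9, 22.9 and 23.3 CPM in the DKO libraries and 34.0, 33.5 and 36.7 CPM in the TKO libraries, 1.51-fold higher with no overlap (log2 0.60 ± 0.062), and its difference was larger than in regular medium (interaction 0.35 ± 0.089, adjusted p = 0.0084). Bcl2l1 was 1.14-fold and Bcl2l2 1.58-fold lower. Per length, in TPM (scaled for transcript length and library size, from the authors' table), Bcl2l1 had a level of 46.1 ± 1.42 in TKO, Bcl2l2 of 21.3 ± 1.5 and Bcl2 of 8.95 ± 0.469. Among the BH3-only genes, whose proteins start apoptosis, Bcl2l11 (BIM) was 1.49-fold higher (162 ± 16.7 against 109 ± 2.96 CPM), and Pmaip1 (NOXA), Bbc3 (PUMA) and Bmf were 1.86-, 2.04- and 1.62-fold lower. NOXA is the BH3-only partner that binds MCL-1 with preference. Of 24 caspase and death pathway genes 8 were higher and 11 lower, with a median log2 fold change of -0.14 (-0.059 without DKO replicate 2). Casp9, the initiator caspase of the mitochondrial pathway, was 1.39-fold lower (17.7 ± 1.17 against 24.8 ± 1.31 CPM), while the death receptor gene Tnfrsf10b stood at 10.2 ± 0.154 CPM (TKO) and 0.0720 ± 0.0410 CPM (DKO) and the executioner of necroptosis Mlkl at 1.69 ± 0.125 CPM (TKO) and 13.2 ± 0.632 CPM (DKO). Casp6, an executioner caspase, and Cflar (c-FLIP), which blocks caspase 8, were 2.69- and 1.73-fold lower.

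**Figure D2:**
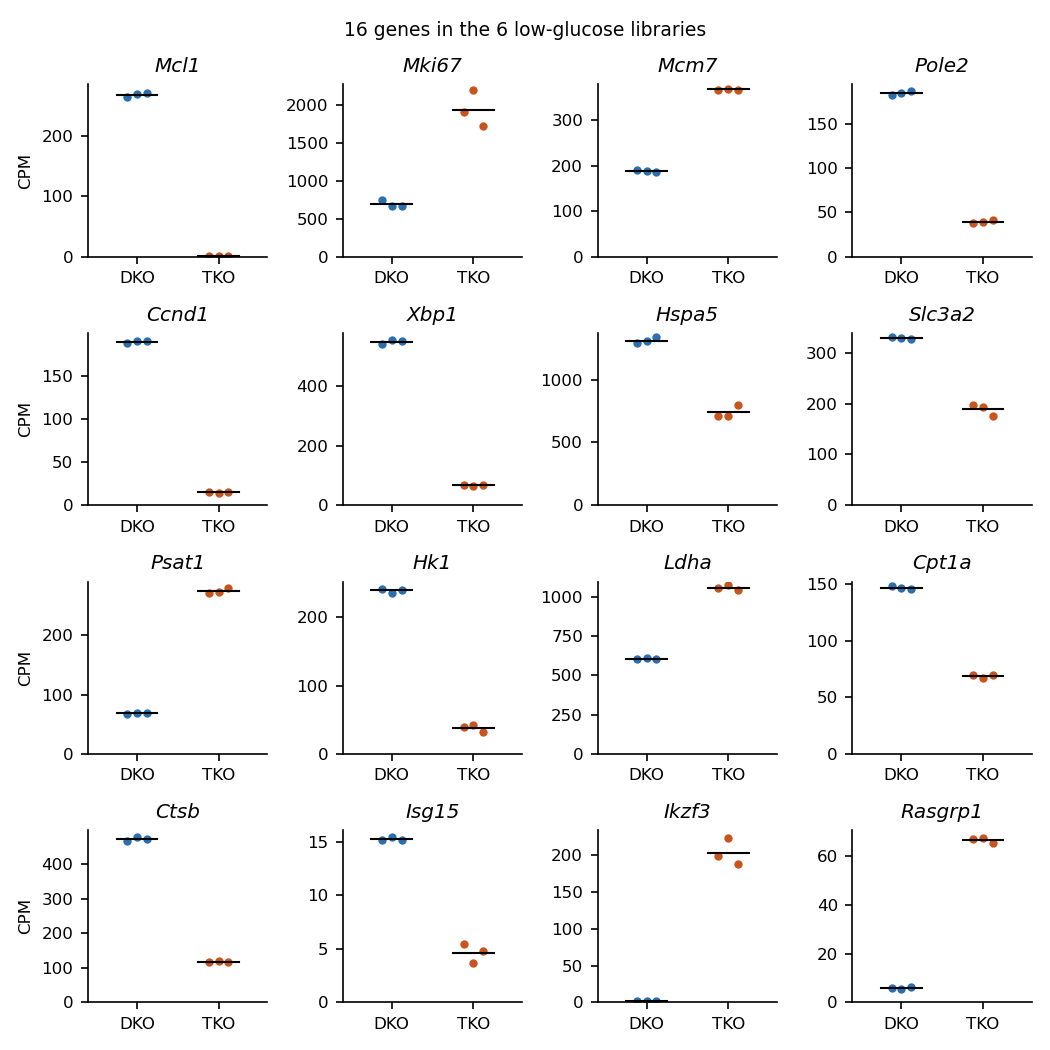
Level in CPM (y axis, from 0) of 16 genes in the 3 DKO (blue) and 3 TKO (orange) low-glucose libraries, with a black line at each group's mean. The groups overlap in none of the 16 panels, and TKO lies lower in the panels of Mcl1, Pole2, Ccnd1, Xbp1, Hspa5, Slc3a2, Hk1, Cpt1a, Ctsb and Isg15 and higher in the rest.

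Genes of cell division stood higher in TKO almost without exception. Of 140 distinct tested genes of DNA replication, mitosis and recombination, 138 were higher in TKO and 2 were lower, and the groups did not overlap in 138. Together these genes held 27722 ± 515 CPM in TKO and 14123 ± 195 CPM in DKO. In regular medium they held 30810 ± 945 and 26541 ± 100 CPM, so that the level in DKO differed more between the media than that in TKO. By the interaction test the TKO minus DKO difference shifted toward TKO in low glucose in 135 of the 140. Of all tested genes 17.6% were called in that direction and 12.1% in the other (29.6% either way). Which direction holds more of all genes depends on the scaling, as given at the end, while the mitosis list held 54 calls toward TKO and 0 toward DKO under every alternative fitted to both media. The interaction is the low-glucose difference minus the regular-medium difference, on the log2 scale.

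DNA replication genes copy the genome in S phase. Of 53 tested, 52 were higher in TKO (16 at least 2-fold) and 1 was lower, with a median log2 fold change of 0.85 in low glucose and 0.16 in regular medium. The helicase gene Mcm7 stood at 189, 187 and 186 CPM in the DKO libraries and 366, 369 and 367 CPM in the TKO libraries, and the sliding clamp gene Pcna at 247, 248 and 249 CPM in the DKO libraries and 503, 485 and 559 CPM in the TKO libraries. Every TKO library lay above every DKO library for both genes, which were 1.96- and 2.08-fold higher. All 6 subunits of the MCM2-7 helicase were higher, from Mcm6 (1.63-fold) to Mcm7. The licensing factor Cdc6, the ligase Lig1, the checkpoint mediator Clspn and the maintenance methylation cofactor Uhrf1 were 2.25-, 2.34-, 2.37- and 2.76-fold higher, and the helicase activator gene Cdc45 2.06-fold. Genes that make deoxynucleotides moved with them: both subunits of ribonucleotide reductase, Rrm1 and Rrm2, were 1.97- and 1.78-fold higher, and thymidylate synthase Tyms 2.12-fold.

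The exception among the replication genes was Pole2, the second subunit of DNA polymerase epsilon. It stood at 183, 186 and 188 CPM in the DKO libraries and 38.1, 39.7 and 41.2 CPM in the TKO libraries, 4.68-fold lower in TKO (log2 -2.23 ± 0.043, adjusted p = 8.06e-15). The catalytic subunit gene Pole went the other way (105, 96.2 and 95.7 CPM in the DKO libraries and 205, 198 and 198 CPM in the TKO libraries, 2.02-fold higher). Pole2 was lower in TKO in regular medium too (log2 -1.75). Pole2 is on mm10 chromosome 12, 69201773 to 69228195.

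Mitosis genes showed the largest median of the lists of growth genes. All 55 tested were higher in TKO, 35 of them at least 2-fold, with a median log2 fold change of 1.07 in low glucose and 0.22 in regular medium, and 54 had a larger difference in low glucose. The proliferation marker Mki67 stood at 744, 666 and 665 CPM in the DKO libraries and 1908, 2191 and 1714 CPM in the TKO libraries, 2.80-fold higher, and the spread of its TKO libraries did not reach the DKO libraries. Kif20a, a kinesin of cytokinesis, had the largest difference (295 ± 19.9 against 82.4 ± 1.78 CPM, 3.58-fold). The cyclins Ccna2 and Ccnb1 were 2.36- and 1.67-fold higher, the mitotic kinases Plk1 and Aurkb 2.33- and 2.09-fold, the checkpoint genes Bub1 and Bub1b 2.74- and 2.24-fold, and the transcription factor Foxm1, which drives many of these genes, 2.26-fold. The condensin gene Ncaph was 2.39-fold higher. The separase inhibitor Pttg1 differed least (1.13-fold) and was the 1 gene whose interaction was not called.

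Of 32 genes of homologous recombination and damage signalling 31 were higher in TKO, with a median log2 fold change of 0.88 against 0.18 in regular medium. Fanci and Rad54b were 2.42- and 2.40-fold higher, Brca1 and Brca2 1.93- and 2.09-fold, and the checkpoint kinase gene Chek1 2.06-fold. The resection nuclease gene Exo1 was 1.86-fold higher. Atm and Trp53bp1, which act upstream in damage signalling, differed little (1.11- and 1.07-fold), and the recombination gene Xrcc2 was 1.19-fold lower, a call that was lost without any 1 of DKO replicates 1 and 2 and TKO replicates 1 and 2.

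G1/S regulators, which decide whether a cell enters S phase, divided by role. The E2F genes E2f1, E2f2, E2f7 and E2f8 were 1.96-, 2.01-, 2.18- and 2.02-fold higher in TKO, and the E-type cyclins Ccne1 and Ccne2 1.88- and 1.81-fold. D-type cyclins went different ways. Ccnd1 stood at 189, 191 and 190.4 CPM in the DKO libraries and 15.7, 14.0 and 15.2 CPM in the TKO libraries, 12.6-fold lower, and Ccnd2 at 1926, 1886 and 1881 CPM in the DKO libraries and 868, 829 and 871 CPM in the TKO libraries, 2.22-fold lower. Ccnd3, the D cyclin on which precursor B cells depend, was 1.17-fold higher (960.5 ± 66.1 against 823 ± 16.6 CPM). Per length, the TPM levels in TKO were 886 ± 63.6 for Ccnd3, 284 ± 11 for Ccnd2 and 7.78 ± 0.539 for Ccnd1, and in DKO 726 ± 22.2, 603 ± 20.0 and 94.2 ± 1.37. Genes of CDK inhibitors were mostly lower: Cdkn1a (p21) and Cdkn2c (p18) were 2.0- and 2.26-fold lower, and Cdkn2a, which encodes p16 and ARF, stood at 45.7, 52.2 and 50.2 CPM in the DKO libraries and 24.0, 19.3 and 22.6 CPM in the TKO libraries, 2.22-fold lower. Cdkn2b had 3.03 CPM in DKO and 0.0159 CPM in TKO. Cdkn2d was 1.41-fold higher. Of the 27 tested, 17 were higher and 9 lower in all.

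**Figure D3:**
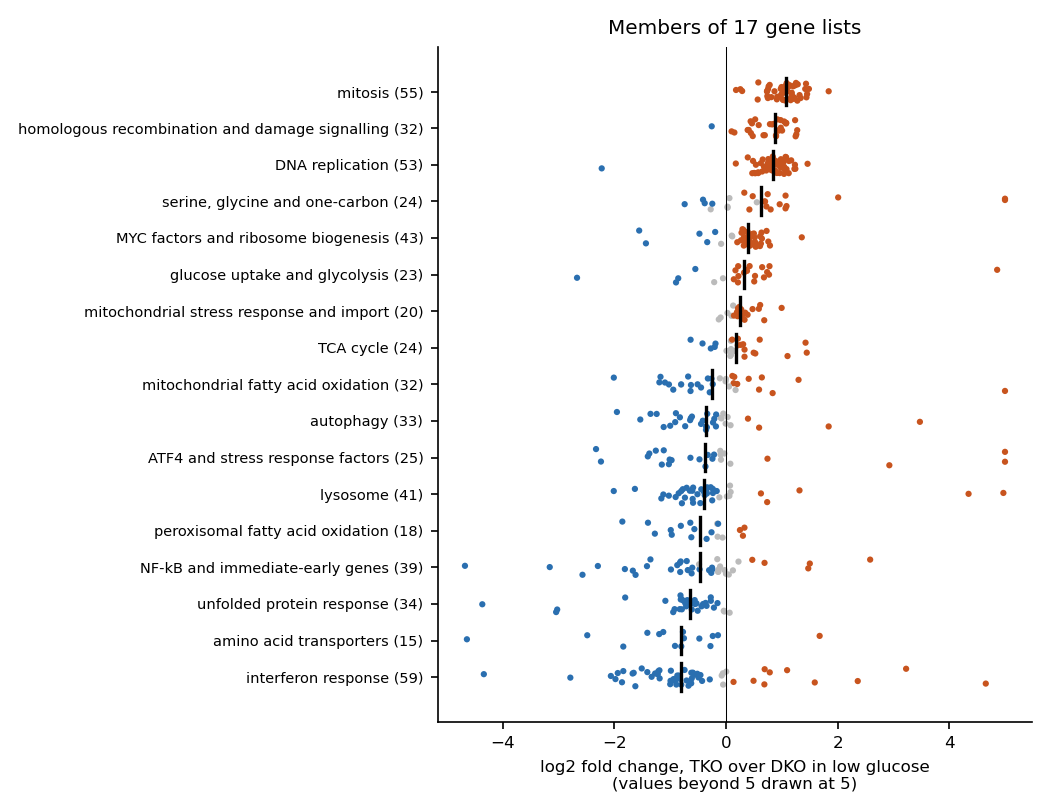
Log2 fold change of TKO over DKO in low glucose (x axis) for each tested member of 17 gene lists (rows, with the number tested in brackets). Orange points were called higher, blue lower and grey neither, black bars are the list medians, and members beyond 5 are drawn at 5. The 3 lists of division genes lie almost wholly to the right of 0 and the unfolded protein response list almost wholly to the left.

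Growth supply genes stood higher to a smaller degree. MYC is a transcription factor that raises ribosome and nucleotide production, and MAD proteins oppose it. Myc stood at 212, 207 and 209.6 CPM in the DKO libraries and 327, 396 and 261 CPM in the TKO libraries, 1.56-fold higher in TKO, with a larger difference in low glucose (interaction 0.62 ± 0.17, adjusted p = 0.0168). The opposing Mxd1 and Mxd4 were 2.7- and 2.94-fold lower and Mxd3 2.56-fold higher, while Mycn was 1.26-fold lower. Of 43 tested genes of MYC factors and ribosome biogenesis 35 were higher and 5 lower (median log2 0.40 in low glucose, 0.11 in regular medium). The nucleolar genes Nolc1, Nop58 and Ncl were 1.73-, 1.69- and 1.66-fold higher, and Ncl had one of the 10 largest rises in CPM of all genes (4101 ± 449.6 against 2476 ± 102 CPM). Gnl3, or nucleostemin, was 1.39-fold lower.

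Of 31 pentose phosphate and nucleotide synthesis genes 18 were higher and 8 lower (median log2 0.24, and -0.050 in regular medium). Ppat, of the first step of purine synthesis, stood at 109.9, 109 and 108 CPM in the DKO libraries and 167, 174 and 179 CPM in the TKO libraries, 1.59-fold higher. The later purine genes Gart, Pfas, Paics, Adsl and Atic were 1.32-, 1.30-, 1.47-, 1.16- and 1.34-fold higher. Beyond IMP, where the purine path forks, Impdh2 and Gmps were 1.24- and 1.12-fold higher, Impdh1 was 1.28-fold lower, and Adss did not pass (log2 0.039 ± 0.037). The pyrimidine genes Cad, Umps and Ctps were 1.31-, 1.36- and 1.40-fold higher, Ctps2 was 1.16-fold lower, and Dhodh did not pass (log2 0.057 ± 0.055). The pentose phosphate genes were divided: G6pdx, Pgls, Rpe and Taldo1 were 1.24-, 1.18-, 1.09- and 1.2-fold lower, Rpia and Tkt 1.44- and 1.28-fold higher, and Pgd did not pass (log2 -0.087 ± 0.042). The dNTP hydrolase gene Samhd1 was 1.77-fold lower, opposite to the ribonucleotide reductase genes. The ectonucleotidase gene Nt5e (CD73) stood at 4.48 ± 0.141 CPM (TKO) and 0.0426 ± 0.0571 CPM (DKO).

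Serine, glycine and one-carbon genes, which supply carbon units for nucleotides, included some of the larger metabolic differences. Of 24 tested 15 were higher and 4 lower (median log2 0.62). Psat1, the transaminase of serine synthesis, stood at 67.6, 68.5 and 68.5 CPM in the DKO libraries and 271, 274 and 279.9 CPM in the TKO libraries, 4.03-fold higher in TKO (log2 2.01 ± 0.035, adjusted p = 2.64e-15), while its neighbours in the pathway did not follow: Phgdh did not pass (log2 0.028 ± 0.055) and Psph was 1.30-fold lower. The hydroxymethyltransferases Shmt1 and Shmt2 were 1.95- and 1.26-fold higher. The glycine decarboxylase gene Gldc had no count in DKO and 5.49, 5.28 and 4.99 CPM in the TKO libraries, at least 232-fold higher. Mthfd2, the mitochondrial folate enzyme that ATF4 induces, did not pass (log2 0.03 ± 0.044), whereas the cytosolic Mthfd1 was 1.68-fold higher. Cth, of transsulfuration, was 2.10-fold higher (47.0 ± 4.97 against 22.5 ± 0.601 CPM), a smaller difference than in regular medium, where it stood at 15.2 ± 1.63 CPM (TKO) and 2.15 ± 0.297 CPM (DKO) (interaction -1.76 ± 0.15, adjusted p = 1.31e-06).

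Genes of the integrated stress response, which senses scarce amino acids and other stress through eIF2 kinases and ATF4, stood lower in TKO. Of 25 tested 16 were lower and 4 higher (median log2 -0.37 in low glucose and 0.043 in regular medium). Atf4 was 1.3-fold lower (234 ± 9.89 against 294 ± 6.94 CPM). Its partner and target Atf5 stood at 98.4, 98.4 and 96.7 CPM in the DKO libraries and 53.6, 50.6 and 45.3 CPM in the TKO libraries in low glucose, 1.97-fold lower in TKO, and at 12 ± 1.04 CPM (DKO) and 15.9 ± 0.652 CPM (TKO) in regular medium, where it was higher in TKO (log2 0.41). The interaction was -1.39 ± 0.099 (adjusted p = 3.41e-07). Trib3 stood at 44.1, 43.6 and 44.0 CPM in the DKO libraries and 18.5, 17.4 and 19.0 CPM in the TKO libraries, 2.39-fold lower, and Chac1, which degrades glutathione, at 17.4, 18.4 and 18.6 CPM in the DKO libraries and 8.84, 9.17 and 8.81 CPM in the TKO libraries, 2.03-fold lower. Ddit3 (CHOP), Atf3 and Sesn2 were 2.01-, 2.59- and 2.22-fold lower, and Gpt2, an alanine transaminase, 4.72-fold. The pseudokinase gene Trib1 was 5.02-fold lower (8.97 ± 0.0466 against 45.1 ± 0.418 CPM). The TKO libraries lay below the DKO libraries for each of these genes. On the other side the lipoprotein receptor gene Vldlr and the gene of the secreted Stc2 had no count in DKO and 8.08 ± 0.924 and 6.84 ± 0.419 CPM in TKO, at least 357- and 302-fold higher. Eif2ak3 (PERK) was 1.16-fold lower, and Eif2ak4 (GCN2) did not pass (log2 -0.029 ± 0.041).

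Amino acid transporters were lower in TKO, 14 of 15 tested, with a median log2 fold change of -0.80 in low glucose and -0.23 in regular medium. The heavy chain gene Slc3a2 (CD98), which brings several exchangers to the surface, stood at 331, 329 and 327 CPM in the DKO libraries and 197, 194 and 176 CPM in the TKO libraries, 1.74-fold lower. Its light chain Slc7a5 (LAT1) was 1.21-fold lower, the glycine transporter gene Slc6a9 2.65-fold (21 ± 1.05 against 55.7 ± 1.87 CPM), and the branched-chain amino acid carriers Slc43a1 and Slc43a2 2.29- and 3.58-fold. The lysosomal peptide and histidine carrier gene Slc15a3 was 5.60-fold and the exchanger gene Slc7a7 25-fold lower (10.3 ± 0.464 against 57.3 ± 1.65 CPM and 0.311 ± 0.0742 against 8.07 ± 0.517 CPM). An interaction below 0 was called in 10 of the 15 and one above 0 in none (in 1 without DKO replicate 2 or without TKO replicate 1 or 2). The arginine transporter gene Slc7a3 was the 1 gene higher in TKO (3.20-fold, 3.59 ± 0.647 against 1.14 ± 0.157 CPM). Among carriers of glutamine and other small neutral amino acids, Slc1a5 (ASCT2), Slc38a2 and Slc1a4 were 1.27-, 1.18- and 2.22-fold lower, and Slc38a1 did not pass (log2 -0.06 ± 0.032). Of 20 genes of glutamine, glutamate and aspartate metabolism 12 were lower and 3 higher (median log2 -0.20). The aspartate carrier gene Slc25a12 and the urea cycle gene Asl were 2.17- and 1.66-fold lower. Asns, which makes asparagine, was 1.10-fold lower, and Glud1 did not pass (log2 -0.032 ± 0.049). Of 22 cytosolic tRNA synthetase genes, which ATF4 also induces, 10 were higher and 3 lower (median log2 0.097, and 0.157 without DKO replicate 1), with Hars, Lars and Kars 1.72-, 1.5- and 1.24-fold and the scaffold gene Aimp2 1.44-fold higher, and Wars and Sars 1.23- and 1.18-fold lower.

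The unfolded protein response raises chaperones and disposal factors of the endoplasmic reticulum through ATF6, IRE1 with XBP1, and PERK. Of 34 tested genes 31 were lower in TKO and 0 higher (1 without DKO replicate 1 or 2 or TKO replicate 2; median log2 -0.65 in low glucose, -0.43 in regular medium). Xbp1, a transcription factor of the response and of plasma cells, stood at 541, 555 and 552 CPM in the DKO libraries and 67.7, 64.9 and 67.1 CPM in the TKO libraries, 8.24-fold lower. Ern1, which encodes IRE1, the enzyme that splices Xbp1 mRNA, was 8.14-fold lower (6.51 ± 0.606 against 52.2 ± 1.95 CPM). Hspa5 (BiP), the chaperone that holds the 3 sensors inactive, stood at 1292, 1308 and 1341 CPM in the DKO libraries and 710.3, 708 and 801 CPM in the TKO libraries, 1.78-fold lower. Derl3, of the retrotranslocation machinery, stood at 6.42, 7.32 and 6.82 CPM in the DKO libraries and 0.364, 0.224 and 0.350 CPM in the TKO libraries, 20.6-fold lower, and with Hspa5 and Pdia6 (1.76-fold lower) it is among the 9 genes with the ERSE shown above. Pdia4 and Herpud1 were 3.50- and 2.12-fold lower, and the co-chaperone gene Dnajb11 and the calnexin gene Canx differed less, 1.11- and 1.16-fold. Derl2, Atf6b and Ero1l did not pass. An interaction below 0 was called in 15 of the 34 and one above 0 in 1. Markers of plasma cells, which carry a large endoplasmic reticulum, share Xbp1 and Derl3 with this list. Over the 9 plasma cell markers in the table the summed level ran from 1607 to 1663 CPM in DKO and from 648 to 763 CPM in TKO, with Tnfrsf17 at 0, and the part of such a difference in the list was not tested.

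Chaperones of other compartments did not follow. In the cytosol, 7 of 18 heat shock genes were higher and 7 lower. The inducible Hspa1a and Hspa1b, whose reads cannot be assigned with certainty since the genes are near-identical copies, were 2.97- and 2.38-fold lower, Dnajb4 1.46-fold lower and the HSP110 family gene Hspa4 1.53-fold higher. Hsp90ab1 and Hspa8 did not pass (log2 -0.0022 ± 0.047 and 0.02 ± 0.053). In mitochondria, 15 of 20 genes of the stress response and protein import were higher in TKO and 0 lower (1 without TKO replicate 1 and 2 without TKO replicate 3; median log2 0.26). The matrix chaperone gene Hspa9 (mortalin) stood at 570.4, 555 and 574 CPM in the DKO libraries and 1083, 1163 and 1148 CPM in the TKO libraries, 2.0-fold higher. Hspd1 (HSP60), Trap1 and the protease genes Lonp1 and Htra2 were 1.61-, 1.53-, 1.5- and 1.39-fold higher. Of 30 genes of mitochondrial dynamics, cristae and mitophagy 12 were higher and 9 lower (5 lower without DKO replicate 1). Immt and Opa1, which shape the cristae, were 1.46- and 1.27-fold higher, the cristae junction gene Chchd3 1.43-fold lower, the calcium uniporter gene Mcu 2.18-fold lower, Pink1 1.94-fold lower, and the mitophagy receptor gene Bnip3 3.58-fold higher (60.8, 62.8 and 60.9 CPM in the DKO libraries and 208, 214 and 238 CPM in the TKO libraries). Mfn1, Dnm1l and Bnip3l did not pass.

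Lysosomal genes, which TFEB and TFE3 raise in starved cells, were lower in TKO. Of 41 tested 31 were lower and 5 higher (median log2 -0.40, and -0.19 in regular medium), and an interaction below 0 was called in 23 and one above 0 in none. The protease gene Ctsb stood at 467, 480.3 and 475 CPM in the DKO libraries and 116, 119 and 118 CPM in the TKO libraries, 4.03-fold lower, and Grn, Ctsd, Lamp1 and Laptm5 were 3.10-, 2.23-, 2.03- and 2.18-fold lower. The proton pump subunit gene Atp6v0d1 was 1.80-fold and the calcium channel gene Mcoln1 1.71-fold lower. Among the factors themselves, Tfeb was 1.54-fold higher (43.9 ± 1.73 against 28.4 ± 0.383 CPM) and Tfe3 1.37-fold lower. The enzyme genes Hexa and Sgsh were nearly silent in DKO (0.0441 ± 0.0189 and 0.0396 ± 0.0347 CPM) and low in TKO (0.965 ± 0.102 and 1.30 ± 0.116 CPM).

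Autophagy genes stood on the same side, 23 of 33 lower and 4 higher (median log2 -0.36). The receptor gene Sqstm1 (p62) stood at 310.5, 319 and 312 CPM in the DKO libraries and 124.6, 126 and 118 CPM in the TKO libraries, 2.55-fold lower. Map1lc3b and Gabarapl2, whose proteins coat the autophagosome, were 1.77- and 1.88-fold lower, the receptor gene Calcoco1 3.87-fold, and the initiation genes Ulk1, Atg13 and Atg14 1.66-, 2.17- and 2.37-fold. The conjugation genes Atg7 and Atg12 and the nucleation genes Becn1 and Uvrag did not pass, and Pik3c3, the lipid kinase of the Beclin complex, was 1.51-fold higher. Atg9b, the second ATG9 gene, stood at 5.07 ± 0.264 CPM (TKO) and 0.467 ± 0.162 CPM (DKO).

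Among glucose and energy sensors 17 of 30 were lower and 8 higher (median log2 -0.19). AMPK is the kinase that responds to low energy. The gene of its catalytic subunit alpha 2, Prkaa2, stood at 81.5, 80.9 and 76.4 CPM in the DKO libraries and 26.7, 24.3 and 28.7 CPM in the TKO libraries, 2.98-fold lower, and that of alpha 1, Prkaa1, was 1.24-fold lower. Txnip, which is raised by glucose through MondoA and restrains its uptake, stood at 215, 213 and 218 CPM in the DKO libraries and 105, 98.5 and 107 CPM in the TKO libraries, 2.08-fold lower, while Mlxip, which encodes MondoA, was 1.65-fold higher. Mtor itself was 1.75-fold lower (555 ± 2.84 against 970.0 ± 26.5 CPM), Flcn and Rragc, which tie mTORC1 to amino acids at the lysosome, 1.6- and 1.42-fold lower, and Rragd and the mTOR inhibitor gene Deptor 1.70- and 2.43-fold higher. In the FOXO and PI3K group 16 of 29 were lower and 6 higher (median log2 -0.31). Foxo1 stood at 464, 453 and 462 CPM in the DKO libraries and 292, 307 and 287 CPM in the TKO libraries, 1.56-fold lower, and Pik3cd, the lymphoid PI3K catalytic gene, at 1332, 1335 and 1299 CPM in the DKO libraries and 775, 689 and 741 CPM in the TKO libraries, 1.80-fold lower. The insulin receptor substrate gene Irs1 stood at 10.1 ± 0.685 CPM in TKO with 1 count in DKO, while Irs2 was 1.46-fold lower. Inpp5d, which encodes the phosphatase SHIP1, was 1.51-fold lower.

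Glycolysis genes were mostly higher in TKO. Of 23 tested 17 were higher and 4 lower (median log2 0.32 in low glucose, 0.17 in regular medium). Several later steps of the pathway stood higher together: Tpi1, Gapdh, Pgk1, Pgam1 and Pkm were 1.71-, 1.43-, 1.67-, 1.29- and 1.72-fold higher, and Pkm stood at 828, 805 and 804 CPM in the DKO libraries and 1378, 1541 and 1265 CPM in the TKO libraries. Of the enolase step, between Pgam1 and Pkm, the genes Eno1 and Eno2 had too few counts to test. Reads of Gapdh, Pgk1, Pgam1 and Tpi1 can be shared with processed pseudogenes, and the treatment of such reads is not given. The phosphofructokinase genes divided, with Pfkl and Pfkm 1.3- and 1.13-fold higher and Pfkp, at 156 ± 3.32 against 162 ± 2.07 CPM, not passing. The glucose transporter genes Slc2a1 and Slc2a3 were 1.57- and 1.30-fold higher.

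The hexokinase genes, of the first step, went opposite ways. Hk1 stood at 242, 236 and 241 CPM in the DKO libraries and 39.2, 42.7 and 31.9 CPM in the TKO libraries, 6.36-fold lower in TKO, and Hk2 at 55.2, 54.6 and 55.1 CPM in the DKO libraries and 82.9, 77.9 and 73.6 CPM in the TKO libraries, 1.42-fold higher. Per length, Hk1 had 98.9 ± 2.78 TPM and Hk2 18.3 ± 0.428 TPM in DKO, and 16.4 ± 2.31 and 27.2 ± 1.86 TPM in TKO, so that Hk2 was the higher of the pair in TKO and the lower in DKO. The Hk1 difference was smaller in low glucose than in regular medium, where it was log2 -3.84 (interaction 1.17 ± 0.11, adjusted p = 4.07e-06). Among the aldolases Aldoc, the brain-type form, stood at 0.326, 0.488 and 0.538 CPM in the DKO libraries and 13.0, 13.7 and 12.5 CPM in the TKO libraries and was 29.0-fold higher (interaction 2.09 ± 0.21, adjusted p = 6.30e-06), with Aldoa, the main form, 1.16-fold higher.

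Genes of lactate and pyruvate handling were divided. Ldha, which makes lactate, stood at 602, 608 and 604 CPM in the DKO libraries and 1054, 1071 and 1041 CPM in the TKO libraries, 1.75-fold higher, and Ldhb, of the other subunit, had 0.998, 0.868 and 0.839 CPM in DKO and no count in TKO, at least 32-fold lower. The exporter genes Slc16a1 (MCT1) and Slc16a3 (MCT4) were 1.43- and 19.2-fold higher. Pdha1 and Dlat of the pyruvate dehydrogenase complex were 1.43- and 1.3-fold higher, its inhibitor gene Pdk1 1.12-fold higher and Pdk3 1.2-fold lower. The mitochondrial pyruvate carrier gene Mpc2 was 1.38-fold lower and Mpc1 did not pass. Of 17 in the group 9 were higher and 4 lower (median log2 0.16, against -0.14 in regular medium). TCA cycle genes were higher in 13 of 24 and lower in 5 (3 without DKO replicate 2), with a median log2 of 0.19. Suclg2, a succinyl-CoA ligase subunit, stood at 38.4, 38.9 and 37.3 CPM in the DKO libraries and 101, 108 and 103 CPM in the TKO libraries, 2.73-fold higher, the malic enzyme gene Me2 was 2.15-fold higher, the cytosolic aconitase gene Aco1 2.69-fold, Idh3a and Fh1 1.41- and 1.52-fold, and Pck2 and Idh1 1.55- and 1.34-fold lower.

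**Figure D4:**
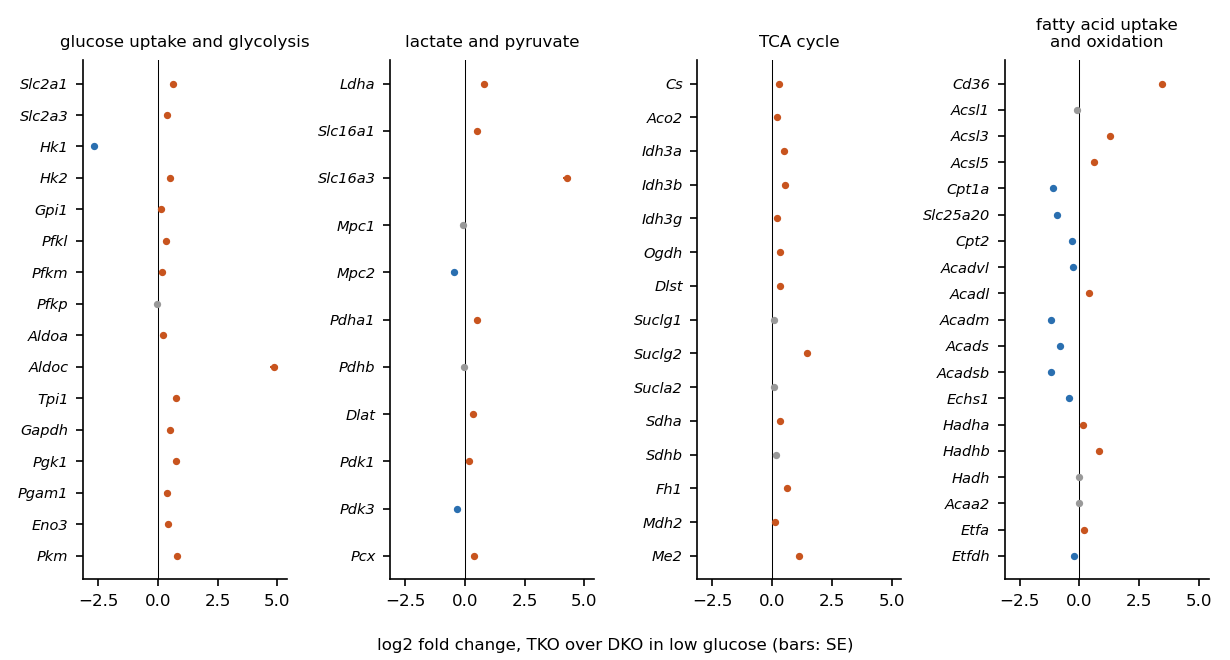
Log2 fold change of TKO over DKO in low glucose (x axis, points with SE bars that are mostly narrower than the point) for genes of 4 stages of carbon metabolism, each panel in pathway order from the top. Orange points were called higher, blue lower and grey neither; Hk1 is the 1 called gene of the glycolysis panel on the left side of 0, and Cpt1a, Slc25a20 and Cpt2 lie left of 0 in the fatty acid panel.

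Fatty acid oxidation is the pathway named in the title of the series. Of 32 tested mitochondrial oxidation genes 16 were lower in TKO and 10 higher (median log2 -0.25 in low glucose, -0.20 in regular medium), and the steps differed. Uptake and activation were divided. Cd36, a fatty acid translocase, stood at 9.15, 9.0 and 9.38 CPM in the DKO libraries and 97.2, 95.8 and 111 CPM in the TKO libraries, 11.1-fold higher, and the acyl-CoA synthetase genes Acsl3 and Acsl5 were 2.46- and 1.51-fold higher, with Acsl1 not passing and Acsl4 1.2-fold lower. The carnitine shuttle into mitochondria was lower: Cpt1a, the rate-limiting carnitine transferase, stood at 148, 147 and 145 CPM in the DKO libraries and 69.6, 67.0 and 69.7 CPM in the TKO libraries, 2.13-fold lower, and Slc25a20 and Cpt2 were 1.92- and 1.3-fold lower. Mlycd, whose product removes the malonyl-CoA that inhibits CPT1, was 4.03-fold lower (3.12 ± 0.491 against 12.9 ± 0.487 CPM).

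The acyl-CoA dehydrogenases were divided too. Acadl, of long chains, was 1.33-fold higher (129.7 ± 6.69 against 97.7 ± 0.878 CPM) and Acadvl, of very long chains, 1.20-fold lower. Acadm, of medium chains, stood at 96.4, 93.6 and 99.5 CPM in the DKO libraries and 39.2, 46.4 and 43.3 CPM in the TKO libraries, 2.25-fold lower, and Acads and Acadsb, of short and branched chains, were 1.74- and 2.29-fold lower. The trifunctional protein genes Hadha and Hadhb were 1.11- and 1.79-fold higher, and the last step, Acaa2, did not pass (log2 0.00051 ± 0.085). Decr1, needed for unsaturated chains, had no count in DKO and 9.27, 7.74 and 10.6 CPM in the TKO libraries, at least 406-fold higher. An interaction above 0 was called in 9 of the 32 genes of the group and one below 0 in none. Of all tested genes 17.6% were called above 0 and 12.1% below. The calls below 0 in the group depended on the processing. They numbered 3 without TKO replicate 3, 4 with no filter on low counts and 2 with upper-quartile factors. The DESeq2 test gave 2, and DESeq2 size factors 1. The 9 genes above 0 included Acsl3 (0.66 ± 0.13), Acadl (0.37 ± 0.070), Hadha (0.24 ± 0.046) and Slc25a20 (0.28 ± 0.097, a call lost without DKO replicate 1 or 3 or TKO replicate 1 or 3). Cpt1a was not among them (0.12 ± 0.050, adjusted p = 0.0769) but was called without TKO replicate 2.

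In peroxisomes, which shorten very long chains, 12 of 18 genes were lower and 3 higher (median log2 -0.46). The oxidase gene Acox3 was 2.42-fold lower and Decr2 3.62-fold (5.65 ± 0.185 against 20.5 ± 0.427 CPM), and the thiolase gene Acaa1a 1.99-fold, while Hsd17b4 was 1.23-fold higher. Of 21 genes for taking up, storing and releasing fatty acids 13 were lower and 4 higher (median log2 -0.40). The lipase genes Pnpla2 (ATGL), Lipe and Mgll, which act in turn on stored fat, were 2.17-, 1.42- and 3.40-fold lower, and Plin2, of the droplet coat, 2.19-fold lower. The fatty acid transporter gene Slc27a1 was 3.33-fold lower (4.06 ± 0.193 against 13.5 ± 0.519 CPM). Abhd5, the ATGL coactivator gene, had no count in DKO and 1.91 ± 0.426 CPM in the TKO libraries. Fabp5, a fatty acid carrier, stood at 24.6, 25.3 and 25.2 CPM in the DKO libraries and 52.9, 62.9 and 51.8 CPM in the TKO libraries, 2.22-fold higher. The synthesis genes Fasn and Acly did not pass (log2 -0.11 ± 0.054 and -0.026 ± 0.037), Acaca and Elovl6 were 1.36- and 1.63-fold higher, and the elongase gene Elovl7 stood at 0.191 ± 0.104 against 16.3 ± 0.370 CPM. Acss2, which makes cytosolic acetyl-CoA from acetate, was 16.4-fold lower (0.698 ± 0.142 against 11.7 ± 0.699 CPM) where its mitochondrial relative Acss1 was 1.78-fold higher (149.6 ± 7.30 against 84.0 ± 1.09 CPM). Cholesterol genes were divided, 12 higher and 9 lower of 30, with Insig1 1.34-fold lower and Stard4 1.53-fold higher. The LXR gene Nr1h2 and its target Mylip, which degrades the LDL receptor, were 1.5- and 1.41-fold lower, and the exporter gene Abca1 had no count in DKO and 3.01 ± 0.286 CPM in the TKO libraries. Among the regulators of oxidation, Rxra was 8.17-fold lower, Esrra 1.74-fold lower, Ppargc1b 1.54-fold higher, the respiratory gene activator Nrf1 1.38-fold higher, and the corepressor gene Nrip1 4.4-fold higher (37.7 ± 0.978 against 8.56 ± 0.170 CPM). Ppara and Ppargc1a were too low to test.

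Oxidative stress genes gave no single direction. Of 30 genes of the NRF2 and oxidative stress list 15 were lower and 7 higher. Hmox1, of haem breakdown, stood at 32, 32.6 and 34.4 CPM in the DKO libraries and 8.30, 9.03 and 8.62 CPM in the TKO libraries, 3.83-fold lower, and Cat, which encodes catalase, was 1.57-fold lower. The ferritin heavy chain gene Fth1 was 1.57-fold lower and the light chain gene Ftl1 19.1-fold (62.9 ± 15.5 against 1211 ± 35.8 CPM), though Ftl1 has near-identical copies that its reads may be split with. The metallothionein genes Mt1 and Mt2, which bind zinc and copper, were 4.66- and 11.1-fold higher, Mt2 at 2.28, 2.36 and 2.02 CPM in the DKO libraries and 25, 28.7 and 20.8 CPM in the TKO libraries (interaction 1.67 ± 0.22, adjusted p = 7.82e-05), and the glutathione reductase gene Gsr was 1.90-fold higher. Gclc, Gclm, Nfe2l2 and Sod2 did not pass. HIF targets were divided too, 12 higher and 10 lower of 27. Among them Plod2, a collagen lysyl hydroxylase gene, stood at 299, 289 and 300.03 CPM (DKO) and 0.0728, 0.0447 and 0.0699 CPM (TKO), one of the largest falls of all genes (4298-fold). Its relative Plod1 was 10.3-fold lower, and the oxygen sensor gene Egln3 had 4.14 ± 0.228 CPM in DKO and no count in TKO. Of 30 p53 targets 10 were higher and 13 lower, with Trp53inp1, Cdkn1a and Mdm2 1.95-, 2.0- and 1.34-fold lower and Phlda3 81.8-fold higher (14.3 ± 1.2 against 0.179 ± 0.0564 CPM).

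Interferon response genes, which detect and restrict viruses, were lower in TKO. Of 59 tested 45 were lower, 18 of them at least 2-fold, and 10 were higher (median log2 -0.80 in low glucose, -0.48 in regular medium). An interaction below 0 was called in 30 and one above in 3. Stat2 and Irf9, factors that carry the interferon signal to the ISRE, were 1.53- and 2.0-fold lower. The RNA sensor genes Ifih1 (MDA5) and Ddx58 (RIG-I) were 3.95- and 2.52-fold lower. Isg15 stood at 15.2, 15.5 and 15.2 CPM in the DKO libraries and 5.49, 3.67 and 4.8 CPM in the TKO libraries, and Rsad2, Usp18, Irf7 and Cmpk2 were 3.64-, 3.58-, 3.15- and 4.18-fold lower. Ifi44 had the largest difference of the list toward DKO (1.51 ± 0.283 against 31.3 ± 0.350 CPM). The receptor genes Ifnar1 and Ifngr2 were 1.74- and 1.79-fold lower. Not all effectors followed. Ifit1 was 1.59-fold lower, Ifit2 did not pass (log2 -0.055 ± 0.040), and the guanylate-binding protein genes Gbp2, Gbp3 and Gbp7, family members whose reads may be shared, were 1.72-, 2.14- and 1.61-fold higher. Isg15 and Ifit1 both hold the ISRE shown above.

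NF-kB and immediate-early genes were lower in 23 of 39 and higher in 5 (median log2 -0.47). The feedback gene Tnfaip3 (A20) stood at 19.7, 19.8 and 20.5 CPM in the DKO libraries and 3.86, 3.35 and 2.89 CPM in the TKO libraries, 5.94-fold lower, Nr4a1 and Nr4a2, induced by antigen receptor signals, were 8.92- and 3.51-fold lower, and the ERK feedback genes Dusp5 and Dusp6 3.07- and 1.53-fold lower, and the ERK target Etv5 1.77-fold lower. The noncanonical subunit gene Nfkb2 was 1.98-fold lower, Rel 1.39-fold higher, and Nfkbia and Rela did not pass.

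Transcription factors of the B lineage were divided, 18 of 39 lower and 13 higher. The core factors Ebf1, Tcf3 and Spi1 did not pass (log2 0.039 ± 0.071, 0.077 ± 0.056 and 0.12 ± 0.080), and Pax5 was 1.84-fold higher. Ikzf3 (Aiolos), which rises as pre-B cells mature, stood at 2.57, 2.39 and 2.45 CPM in the DKO libraries and 199, 223 and 188 CPM in the TKO libraries, 81.9-fold higher, against 1.28-fold for its relative Ikzf1. In regular medium it stood at 1.09 ± 0.249 CPM (DKO) and 193 ± 19.4 CPM (TKO), a larger difference (interaction -1.09 ± 0.20, adjusted p = 9.56e-04). Bcl11a and Id3 were 2.90- and 2.79-fold higher, and the repressor gene Gfi1 stood at 5.91 ± 0.275 CPM (TKO) and 0.0709 ± 0.0338 CPM (DKO). Sox4, Irf4, Irf8 and Myb were 2.48-, 1.75-, 1.64- and 1.41-fold lower, and the plasma cell factor Prdm1 was low in both (0.144 ± 0.147 against 0.841 ± 0.121 CPM).

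V(D)J recombination genes, which assemble antibody genes in precursor B cells, differed in a few members. Dntt (TdT), of pro-B cells, stood at 364, 366 and 365 CPM in the DKO libraries and 28.5, 32.5 and 30.1 CPM in the TKO libraries, 12.1-fold lower. Rag2 stood at 2.16, 2.36 and 1.74 CPM in the DKO libraries and 13.1, 14.9 and 13.3 CPM in the TKO libraries, 6.58-fold higher, and its partner Rag1 was 1.21-fold higher (13.7 ± 2.09 against 11.5 ± 0.513 CPM), a call lost without TKO replicate 3. In regular medium Rag1 stood at 22.9 ± 1.13 CPM (TKO) and 6.76 ± 0.169 CPM (DKO) (log2 1.76), and the difference in low glucose was the smaller (interaction -1.49 ± 0.12, adjusted p = 1.24e-06). The surrogate light chain genes Igll1 and Vpreb1 were 1.71- and 1.3-fold lower, the end-joining gene Xrcc6 (Ku70) was 1.51-fold higher, and Cd79a and Cd79b did not pass. Genes of B-cell receptor signalling were lower in 19 and higher in 19 of 40. Proximal kinases were lower, Blk 2.7-fold and Lck 8.16-fold (11.4 ± 1.35 against 91.4 ± 2.90 CPM), with Lyn 1.10-fold, the inhibitory receptor gene Fcgr2b 3.26-fold and the phosphatase gene Inppl1 (SHIP2) 2.27-fold lower. On the path from protein kinase C to NF-kB, Prkcb and Malt1 were 2.56- and 2.12-fold higher and Bcl10 1.17-fold lower. Rasgrp1, which activates RAS, stood at 6.11, 5.67 and 6.24 CPM in the DKO libraries and 67.2, 67.4 and 65.3 CPM in the TKO libraries, 11.1-fold higher, and the adaptor gene Bank1 was 5.57-fold higher (74.5 ± 3.47 against 13.4 ± 0.239 CPM).

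On the surface, Cd93 and Ly6a were 2.56- and 2.82-fold lower, and Cd44, Cd22 and Cd53 2.97-, 1.83- and 1.49-fold higher. Ms4a1 (CD20), of later B-cell stages, stood at 3.74 ± 0.594 CPM (TKO) and 0.0181 ± 0.0313 CPM (DKO). Of 29 surface and stage markers 14 were higher and 10 lower. Of 37 cytokine and chemokine receptor and JAK-STAT genes 21 were lower and 10 higher (median log2 -0.355). Il4ra stood at 96.9, 97.3 and 97.9 CPM in the DKO libraries and 11.8, 12.6 and 11.6 CPM in the TKO libraries, 8.17-fold lower, and Il2ra (CD25), a marker of pre-B cells, at 23.9, 22.9 and 22 CPM in the DKO libraries and 113, 129.8 and 115 CPM in the TKO libraries, 5.19-fold higher. Il7r, the receptor of the main growth factor of precursor B cells, did not pass (log2 -0.043 ± 0.036), while Stat5a, downstream of it, was 1.61-fold lower, its targets Socs2, Pim1 and Cish 1.47-, 1.55- and 1.33-fold lower, and Stat5b 1.26-fold higher. Bmpr1a, a receptor of bone morphogenetic proteins, stood at 10.1, 9.95 and 10.4 CPM in the DKO libraries and 87.6, 88.3 and 91.7 CPM in the TKO libraries, 8.81-fold higher, and Il3ra was 7.41-fold higher (10.4 ± 0.906 against 1.42 ± 0.152 CPM).

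Adhesion and cytoskeleton genes held some of the widest gaps, with 23 of 50 lower and 18 higher. Of the integrin genes, Itgal, of LFA-1, stood at 286, 290.3 and 275 CPM in the DKO libraries and 7.33, 7.87 and 7.41 CPM in the TKO libraries, 37.8-fold lower, Itga6 was 4.4-fold and Itgb3 66.2-fold lower, and Itga5 stood at 11.6 ± 0.669 CPM in DKO with 3 counts over the TKO libraries. Itgav was 1.69-fold lower. Itga4 and Itgb1 differed less (1.15- and 1.08-fold lower), and both calls were lost without DKO replicate 1 or 2 or TKO replicate 1, that of Itga4 also without TKO replicate 3. Itgb2 did not pass (log2 -0.082 ± 0.053), and Itga1 and Itgb7, low in both lines, were higher in TKO (0.916 ± 0.136 against 0.0426 ± 0.0571 CPM and 1.10 ± 0.0692 against 0.488 ± 0.126 CPM). The linkers of integrins to actin Actn1, Vcl and Pxn were 19.2-, 1.81- and 2.16-fold lower, while the focal adhesion kinase gene Ptk2 had no count in DKO and 34.9, 37.6 and 35.7 CPM in the TKO libraries, at least 1593-fold higher. In the membrane skeleton the ankyrin gene Ank3 stood at 114, 104 and 104 CPM (DKO) and 0.218, 0 and 0.210 CPM (TKO), and the spectrin gene Sptbn1 at 0.0611, 0 and 0.0215 CPM and 331, 341 and 306 CPM. Marcks had no count in DKO and 23.3 ± 1.83 CPM in the TKO libraries, and its relative Marcksl1 was 2.30-fold lower.

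Genes of DNA and histone modifiers were higher in 19 of 43 and lower in 11 (median log2 0.064, but 0.153 without TKO replicate 3, 0.129 and 0.109 without DKO replicates 1 and 2 and 0.0996 without TKO replicate 2). The demethylase gene Kdm5b and the deacetylase gene Hdac11 stood at 6.63 ± 0.484 against 0.123 ± 0.0613 CPM and 6.78 ± 1.04 against 0.182 ± 0.0846 CPM, TKO given first. Hdac9 was 1.81-fold lower, and the Polycomb genes Suz12 and Eed were 1.48- and 1.44-fold higher. Of 29 oncogenes and tumour suppressors of leukaemia 16 were lower and 8 higher (median log2 -0.23). Notch2 stood at 34.1, 34.1 and 31.6 CPM in the DKO libraries and 7.96, 7.07 and 6.90 CPM in the TKO libraries, 4.53-fold lower, with the Notch target Hes1 2.55-fold and the ubiquitin ligase gene Cbl 2.20-fold lower. Nras was 1.17-fold lower.

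Genes with few or no counts in 1 line were the extremes. Of the tested genes 131 had no count in the 3 DKO libraries and 56 none in the 3 TKO libraries, and 25 and 16 of these reached a mean of 5 CPM in the other line. Against a floor of 3 counts over the group, the calcium sensor gene Ncs1 was at least 1126-fold higher in TKO (25.5 ± 1.87 CPM) and Xk, of a membrane scramblase complex, 1045-fold. On the other side the organic anion transporter gene Slco1a5 was at least 4969.7-fold lower (140.0 ± 0.221 CPM in DKO), the fibronectin domain gene Fndc3b 2459.6-fold and the GTPase gene Rab39b 968-fold. Slco1a5 and Plscr2 (59.2 ± 0.896 CPM in DKO and no count in TKO) have close paralogs whose reads may be shared. The bounds cover counting error only. Further genes of the 12 largest fitted rises with a mean of at least 5 CPM were Fpgt, Kif16b, Bhlhb9, Sertad4, Bend4 and Zfp827, at 17.9 ± 1.62, 53 ± 3.72, 51.0 ± 3.0, 14.1 ± 0.0523, 12.4 ± 0.613 and 37.3 ± 2.5 CPM in TKO, with 1 count or none over the DKO libraries. Further genes of the 12 largest falls were Bex3, Fam169b, Uaca, Aldh1a7, Eps8l1 and Tmem100, at 25.5 ± 0.907, 20.8 ± 0.713, 80.7 ± 3.48, 115 ± 2.47, 10.9 ± 0.535 and 10.8 ± 0.508 CPM in DKO, with 2 counts or fewer over the TKO libraries.

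By the amount of RNA, the genes that moved most CPM were others. Besides Ncl, those higher in TKO included Ptma (prothymosin alpha, 3628 ± 140.4 against 2344 ± 104 CPM), Mki67, Top2a (1908 ± 74.2 against 873 ± 28.1 CPM), the splicing factor genes Hnrnpa2b1 (2597 ± 276 against 1606 ± 73.0 CPM) and Hnrnpu, the RNA-binding protein genes Pabpc1 and Ybx1, and the chromatin protein genes Hmgb2 (1376 ± 114 against 484 ± 3.36 CPM) and Hmgb1 (1494 ± 246 against 764 ± 9.38 CPM). Hmgb1 and Ptma have many processed copies, and the spread of the TKO libraries was wide for Hmgb1. Those lower included the translation factor genes Eef1a1 (11491 ± 123 against 14502 ± 227 CPM) and Eef2 (4233 ± 223 against 5873 ± 53.3 CPM), the ubiquitin ligase adaptor gene Klhdc2, the growth factor gene Tgfb3, Ccnd2, Cd93, Ftl1 and the ribosomal genes Rps4x, Rpl3 and Rack1. Klhdc2 stood at 1232, 1232 and 1261 CPM in the DKO libraries and 49.0, 50.5 and 55.0 CPM in the TKO libraries, 24.1-fold lower, and Tgfb3 at 1157, 1132 and 1114 CPM in the DKO libraries and 27.5, 29.3 and 24.1 CPM in the TKO libraries, 42.3-fold lower. Eef1a1 differed by less in proportion, 1.26-fold.

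The difference between the lines in low glucose was set beside that in regular medium, which shares no library with it. Of all 11988 tested genes 7395 were called in regular medium, so that most genes would be called there in any case. Of 8941 genes called in low glucose 6230 were called in the same direction in regular medium, 219 in the opposite direction and 2492 were not called there, which does not show that they did not differ. The typical size was larger in low glucose (median absolute log2 fold change 0.39, against 0.265). By the interaction test the TKO minus DKO difference of 3553 genes was not the same in the 2 media. It shifted toward TKO in low glucose in 2106 and toward DKO in 1447. The count toward DKO was 968, 928 and 1156 without DKO replicates 1, 2 and 3. A shift toward TKO can narrow the gap where TKO is lower. The balance turned with the scaling or the filter: upper-quartile factors gave 1469 toward TKO and 2115 toward DKO, and no filter on low counts 1449 and 1991. The median interaction over all tested genes moved from 0.029 to -0.047 and -0.040 under these. Of the 219 genes with opposite directions 130 were higher in TKO in low glucose and lower in regular medium, and 89 the reverse, Atf5 among the latter.

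The lists differed in how much of their difference was also present in regular medium. Mitosis, DNA replication and recombination genes had medians 0.85, 0.69 and 0.63 higher by the interaction, the largest of the described lists, and amino acid transporters -0.52. Unfolded protein response and interferon genes were lower in both media, with median interactions of -0.22 and -0.26, and lysosomal genes with -0.30. Mitochondrial fatty acid oxidation had 0.073 (-0.0045 with upper-quartile factors) and autophagy -0.11.

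**Figure D5:**
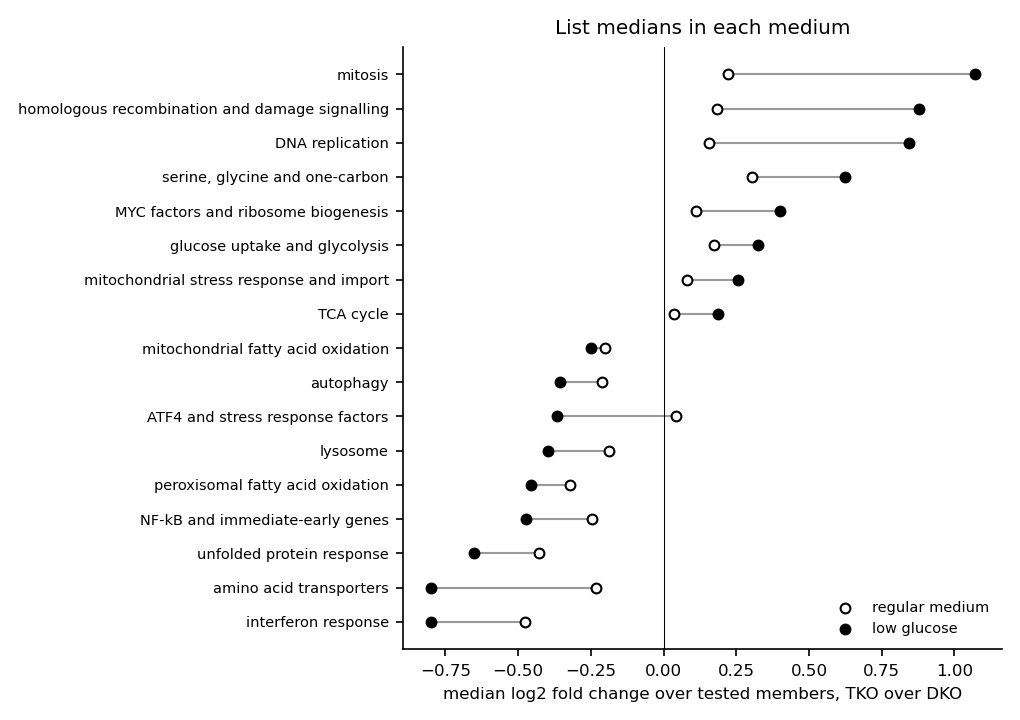
Median log2 fold change of TKO over DKO (x axis) over the tested members of 17 gene lists (rows) in regular medium (open circles) and in low glucose (filled circles), 3 libraries a group. The grey line joins the media; the 3 lists of division genes have the longest lines to the right and amino acid transporters the longest to the left.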

How the data were processed

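RNA of the mouse lines was prepared as strand-specific mRNA libraries, per the labels' protocols. Per the submitters' processing notes, STAR 2.7.3a, the build mm10 and DESeq2 1.22.1 were used. The strand setting of the counting and its treatment of reads shared by gene copies are not given in the sources used here. The deposited tables hold raw counts per gene, TPM values computed by the authors, and the authors' comparison with log2 fold changes and adjusted p-values. Counts were used for every test. TPM served to compare levels between genes and for 1 alternative. The mean level and test statistic in the authors' comparison, scores computed by the authors, were not used. The deposited fold changes (log2) and p-values were used to compare calls only.

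Genes were filtered with filterByExpr (10 counts in a library of median size, 15 in all), scaled by TMM and fitted with edgeR 4.0.16 (R 4.3.3) by quasi-likelihood with 4 group means over 12 libraries (8 residual degrees of freedom). The contrasts were TKO against DKO in low glucose, the same in regular medium, and their difference (interaction), each with p-values adjusted over all 11988 tested genes. A group with no count in 3 libraries was set at 3 counts over the group for a bound on the fold. In 1 library 3 counts are 0.0611 to 0.134 CPM. Genes were named as members of the lists (among them those with the lowest adjusted p), or by rank among called genes: the 12 largest log2 fold changes each way (mean of at least 5 CPM, no overlap), and the 10 largest CPM differences and interactions each way, without predicted genes, Riken clones and pseudogenes. Members and lists were chosen with earlier results of these data known, and no list was tested as a set. Alternatives were other scalings, filters and tools (DESeq2, limma on log2(TPM + 1)), a replicate term, and leaving out each low-glucose library. Promoter windows came from RefSeq (GRCm38.p6, the assembly of mm10). Mitochondrially encoded and immunoglobulin constant genes were not analysed here. Some genes that the naming rules select are not reported here.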

Additional observations from a re-analysis of the deposited data

Results flagged for a closer look

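A set of results is listed here because the difference between the lines was not the same in the 2 media by the interaction test of edgeR (adjusted p under 0.05). The TKO minus DKO difference shifted toward TKO in low glucose in 2106 genes and toward DKO in 1447. The count toward DKO was 968, 928 and 1156 without DKO replicates 1, 2 and 3. A shift toward TKO can narrow the gap where TKO is lower, so these counts do not say whether the gap widened. With upper-quartile factors the shift was toward TKO in 1469 and toward DKO in 2115. With no filter on low counts it was so in 1449 and 1991, so that which direction has more calls depends on these choices. No explanation was weighed.

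Ranks were taken over called genes whose mean in the 6 low-glucose libraries was 5 CPM or more. The 10 largest log2 interactions toward TKO were 2.16 for Lrp4, an agrin and WNT coreceptor gene, 2.09 for Aldoc, 1.67 for Mt2, 1.62 for Elfn1, 1.6 for the muscle ribosomal protein gene Rpl3l, 1.35 for the heparan sulfate sulfotransferase gene Hs3st2, 1.29 for the troponin gene Tnni2, 1.19 for Maged1, 1.18 for the nucleosome-binding Hmgn5 and 1.17 for Hk1. The calls of Hs3st2 and Maged1 were lost without TKO replicate 1 and TKO replicate 3. Lrp4 stood at 94.6 ± 2.71 CPM (DKO) and 0.632 ± 0.131 CPM (TKO) in low glucose, and at 92.2 ± 1.2 and 0.145 ± 0.0786 CPM in regular medium. Hk1 stood at 274 ± 6.27 and 19.1 ± 1.20 CPM in regular medium, so its shift is a smaller deficit in TKO.

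In the other direction the log2 interaction was -2.62 for Crisp3, -1.97 for Susd3, -1.81 for Glipr1, -1.76 for Cth, -1.57 for the signalling adaptor gene Bcar3, -1.54 for the calpain gene Capn1, -1.49 for Rag1, -1.42 for Rasgrp1, -1.39 for the CD30 ligand gene Tnfsf8 and -1.39 for Atf5. Crisp3 stood at 17.9 ± 0.900 CPM (DKO) and 16.8 ± 3.70 CPM (TKO) in low glucose, and at 1.11 ± 0.153 and 6.57 ± 0.768 CPM in regular medium. Rasgrp1 stood at 2.26 ± 0.186 CPM (DKO) and 66.9 ± 3.46 CPM (TKO) in regular medium.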

How the results depend on the processing

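No gene called both in edgeR as described and under an alternative changed direction under any of the alternatives run, and between 47.3% and 55.7% of the calls were higher in TKO. The median log2 fold change over all tested genes moved to between -0.032 and 0.053. Genes called higher numbered 4247 to 4696 and genes called lower 3835 to 4483 when each low-glucose library was left out in turn, and 7615 of the 8941 calls held without each of them. Genes at least 2-fold higher numbered 753 and at least 2-fold lower 743 (1188 and 1259 in edgeR) with limma on log2(TPM + 1), where the added 1 shrinks the folds of low genes. Genes whose interaction was called toward DKO numbered 928 to 1559 over the fits without 1 library. They numbered 968, 928 and 1156 without DKO replicates 1, 2 and 3, against 1447 with all libraries. The cause of the lower counts was not tested. Upper-quartile factors gave 1469 interactions toward TKO and 2115 toward DKO and no filter on low counts 1449 and 1991, which turned the balance of 2106 and 1447. No pairing by replicate number was seen in the low-glucose libraries. For this, each library was expressed as its log2 deviation from its own group's mean, over genes averaging 5 CPM or more in low glucose. Between same-numbered TKO and DKO libraries these deviations correlated at -0.0020, -0.20 and 0.11. Between differently numbered ones the correlations ran from -0.232 to 0.216. They do not compare the expression profiles of the lines themselves. So few libraries cannot exclude a pairing. A fit with the replicate number as a block called 4506 genes higher and 4532 lower.

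Over the alternatives the list medians ran from 0.815 to 0.915 for DNA replication, from 1.04 to 1.13 for mitosis, from -0.682 to -0.577 for the unfolded protein response, from -0.834 to -0.706 for amino acid transporters and from -0.830 to -0.684 for interferon response. Medians near 0 changed sign: heat shock (-0.038 to 0.073), cholesterol (-0.037 to 0.052), HIF targets (-0.027 to 0.089), V(D)J genes (-0.029 to 0.061) and B-lineage transcription factors (-0.146 to 0.014). The median moved by over 1.5 times for caspases (-0.200 to -0.059), DNA and histone modifiers (0.035 to 0.153) and cytosolic tRNA synthetases (0.068 to 0.161), and with limma on log2(TPM + 1) for NF-kB (-0.231), energy sensors (-0.114), glutamine (-0.116) and mitochondrial fatty acid oxidation genes (-0.154), and to -0.291 for peroxisomal genes with the filter at 1 CPM. Medians also moved by over 1.5 times for regulators of oxidation (0.0054 to 0.190), mitochondrial dynamics (0.0055 to 0.0985), B-cell receptor signalling (0.006 to 0.098) and adhesion (-0.131 to -0.0057). So did those for oxidative stress (-0.151 to -0.036), p53 targets (-0.134 to -0.024) and fatty acid synthesis (0.058 to 0.171). Small differences lost their call without at least 1 library for Asns, Atm, Bcl10, Dnajb11, Itga4, Itgb1, Lyn, Pfkm, Rag1, Rpe, Trp53bp1 and Xrcc2. Fatty acid synthesis genes called lower numbered 7 in place of 4 with upper-quartile scaling. Depth limits genes read at a few counts: 3 counts in 1 library are 0.0611 to 0.134 CPM.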
